A study of Mus musculus with 12 samples.

Results

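The 7 neighbouring genes of mouse chromosome 7 described here were measured in 12 liver RNA-seq libraries: Srcap, Tmem265, Gm49388, Phkg2, Fbrs, Rnf40 and Bcl7c. They were 7 of the 20093 genes present in both deposited count tables, taken by name. The region was chosen by the measured genotype differences of the adjacent pair Srcap and Tmem265, whose rows had been seen to move in opposite directions, and the other members by lying near them. The genotype contrasts of all 7 were treated as used in that choice. The livers came from male C57BL/6N mice homozygous for a floxed Elavl1 allele, the gene of the RNA-binding protein HuR, and all 4 groups shared that allele and an AAV8 injection. Per the labels, mice aged 4 to 6 months received AAV8-Tbg-Cre (HuRHep-/-) or AAV8-Tbg-null (WT), the Tbg promoter being active in hepatocytes. They were kept on normal chow or were given for 16 weeks a diet with 40 kcal% fat, 2% cholesterol and 20 kcal% fructose (HFCF), with 3 livers in each of chow WT, chow HuRHep-/-, HFCF WT and HFCF HuRHep-/-. The study's methods instead describe an albumin-Cre cross and younger mice, and the labels and methods were not reconciled here.

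Elavl1 itself, the targeted gene, went against the labels. Its raw counts were 938, 876 and 948 in chow WT and 1475, 1265 and 1261 in the chow livers labelled HuRHep-/-. In HFCF they were 904, 791 and 849 in WT and 1299, 1242 and 1271 in the livers labelled HuRHep-/-, so all livers of that label lay above their WT groups. The log2 fold change was 0.41 (SE 0.07, adjusted p = 0.022) in chow and 0.38 (SE 0.07, adjusted p = 0.0327) in HFCF by limma. The counts cover the whole gene, and which exons the floxed allele removes was not examined. Below, HuRHep-/- is therefore short for livers labelled HuRHep-/-, and each direction rests on that label. Library totals ran from 30071731 to 35949203 counts with a median of 34301904.5. The 6 hepatocyte markers (Alb, Apoa1, Ttr, Serpina1c, Cps1 and Hnf4a) were all present. Levels are in CPM, counts per 1000000 counts of the library total scaled by trimmed mean of M-values (TMM) factors. The hepatocyte markers summed to 93802 to 115424 CPM in chow WT, 74484 to 82721 in chow HuRHep-/-, 64153 to 74255 in HFCF WT and 59268 to 62946 in HFCF HuRHep-/-. The 5 Kupffer cell markers summed to 112 to 139, 161 to 237, 180 to 284 and 235 to 405 CPM in the same order, and none of the 5 was at 0 in any group. Cholangiocyte markers summed to 35.1 to 78.8, 47.0 to 77.2, 38.6 to 87.3 and 132 to 241 CPM, and stellate cell markers to 141 to 165, 113 to 167, 143 to 294 and 270 to 331 CPM. Sinusoidal endothelial markers lay between 77.2 and 102 CPM in all livers, while T and B cell markers summed to 1.51 to 2.81, 1.91 to 3.00, 1.28 to 2.51 and 3.17 to 3.37 CPM and neutrophil markers to 1.77 to 2.44, 1.88 to 3.16, 2.14 to 3.27 and 4.17 to 5.36 CPM in the order above. Each sum mostly follows its most abundant genes. Alb had a mean of 1782482 counts against 14752 for Hnf4a, and Spp1 2836 against 76 for Krt19. By limma the cholangiocyte markers Krt19 and Krt7 were called between genotypes in HFCF. No other marker of these lists was called between genotypes on either diet. The part of the differences between these sums in the results below was not tested, and in bulk liver fewer cells of a type and less RNA per cell cannot be told apart.

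SRCAP is the ATPase of a chromatin remodelling complex that exchanges canonical histone H2A for the variant H2A.Z, which marks promoters and enhancers. Tmem265 encodes a predicted small membrane protein. Among the other members, Fbrs (fibrosin) belongs with AUTS2 in a Polycomb complex, Rnf40 is the partner of Rnf20 in the ubiquitin ligase for histone H2B, and Bcl7c is a subunit of BAF remodelling complexes. Phkg2 is the catalytic subunit of phosphorylase kinase in liver, which switches on glycogen breakdown. Gm49388 is annotated as a read-through transcript that joins exons of Setd1a, a histone methyltransferase gene, to exons of Hsd3b7, an enzyme gene of bile acid synthesis.

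The pair that gave the neighbourhood its name overlaps a further gene. In GENCODE M21 on GRCm38, Srcap lies at chr7:127511983-127561219 and Tmem265 at chr7:127561390-127566940, both on the plus strand, with 170 bases between them. Gm42715, at chr7:127519584-127567054, spans both and shares 76.4% of its 12746 exonic bases with Srcap. All 1263 exonic bases of Tmem265 lie inside Gm42715 exons, so Tmem265 has 0 bases of its own on that strand. Of the 15783 exonic bases of Srcap, 61.7% are shared with Gm42715 and 6045 are its own on that strand. Gm42715 is no member, but it has a row in both tables and is given beside the pair. How reads that fit more than 1 of these rows were divided is not given in the sources used here. The study's methods name a RefSeq genome while the rows carry Ensembl identifiers, so the gene models used for counting may differ from the GENCODE models described here.

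**Figure D1:**
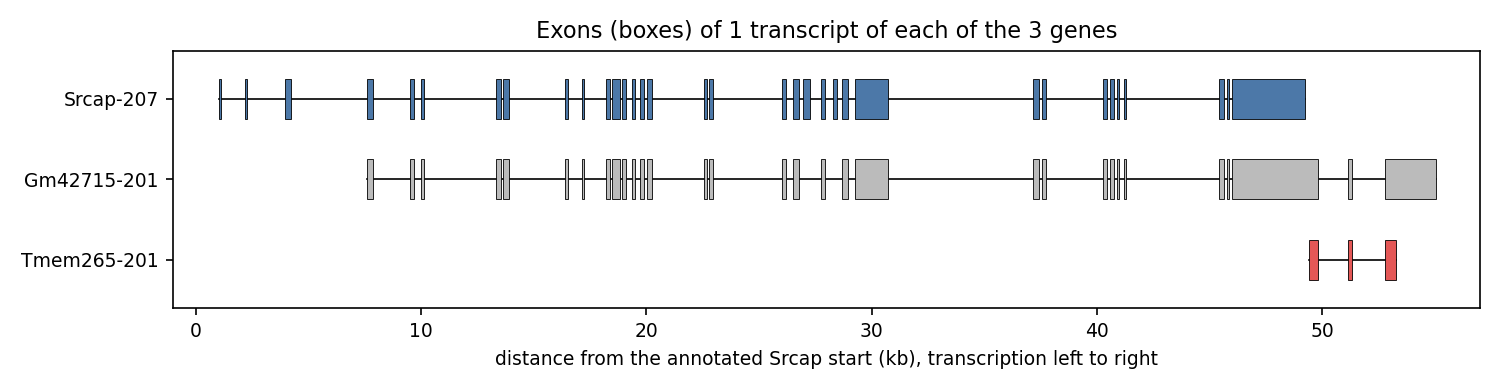
Exons (boxes) of 1 annotated transcript each of Srcap, Gm42715 and Tmem265 against distance in kb from the annotated start of Srcap, all transcribed from left to right. Gm42715 repeats most Srcap exons, runs on across the gap of 170 bases and covers all 3 Tmem265 exons.

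The 2 stretches below, from GENCODE M21 transcript sequences, show where the rows can and cannot be told apart. The first is the coding start of Srcap (transcript Srcap-207, chr7:127516148-127516201 joined to chr7:127519581-127519646, plus strand). Its 57 capitals precede the start of Gm42715, and the bases of the first coding exon occur in 11 of the 14 Srcap transcripts and in 0 of Gm42715. The lower-case bases are also in 1 Gm42715 transcript.
Srcap coding start: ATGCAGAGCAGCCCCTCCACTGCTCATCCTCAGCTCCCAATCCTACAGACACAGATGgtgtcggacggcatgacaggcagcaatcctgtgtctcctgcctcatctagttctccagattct
The second is the coding part of the second Tmem265 exon (chr7:127563125-127563292, plus strand), with the start codon in capitals. All 168 bases occur in both Tmem265 transcripts, unbroken in 1 Gm42715 transcript and in 0 of Srcap, so a read from here could be given to the Tmem265 or the Gm42715 row.
Tmem265 second exon: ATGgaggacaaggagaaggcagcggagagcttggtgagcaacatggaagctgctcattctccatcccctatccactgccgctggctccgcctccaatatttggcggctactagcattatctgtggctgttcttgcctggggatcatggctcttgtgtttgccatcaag

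The Srcap row was lower in livers labelled HuRHep-/- on both diets. Its raw counts were 272, 416 and 381 in chow WT and 123, 89 and 98 in chow HuRHep-/-. In HFCF they were 922, 711 and 489 in WT and 184, 219 and 164 in HuRHep-/-. The groups did not overlap on either diet, and every HFCF WT liver lay above every chow WT liver. In CPM scaled by trimmed mean of M-values (TMM) factors, the level fell from 11.8 ± 2.55 to 3.11 ± 0.414 CPM in chow and from 20.5 ± 4.52 to 4.89 ± 0.684 CPM in HFCF (SD, n = 3 per group). The log2 fold change was -1.89 (SE 0.19) in chow and -2.07 (SE 0.19) in HFCF. These differences chose the gene, so no test is given for them.

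The Tmem265 row moved the other way by a similar factor. Its raw counts were 92, 88 and 97 in chow WT and 376, 299 and 438 in chow HuRHep-/-. In HFCF they were 89, 65 and 51 in WT and 381, 353 and 308 in HuRHep-/-. Again no liver overlapped between genotypes. The level was 3.05 ± 0.115 and 11.2 ± 2.13 CPM in chow, and 1.98 ± 0.364 and 8.98 ± 0.620 CPM in HFCF, with log2 fold changes of 1.86 (SE 0.15) and 2.17 (SE 0.16). The number of Srcap reads per Tmem265 read was 2.96, 4.73 and 3.93 in chow WT and 0.327, 0.298 and 0.224 in chow HuRHep-/-. It was 10.4, 10.9 and 9.59 in HFCF WT and 0.483, 0.620 and 0.532 in HFCF HuRHep-/-, so the pair changed order in every liver of that label.

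Gm42715 held more reads than Srcap or Tmem265 in every liver but the first HFCF WT liver, where Srcap held more. Its raw counts were 945, 751 and 760 in chow WT and 1260, 1190 and 971 in chow HuRHep-/-. In HFCF they were 581, 847 and 718 in WT and 1149, 985 and 969 in HuRHep-/-. On the CPM scale the genotypes overlapped on both diets. The highest chow WT liver, at 31.1 CPM, lay above the lowest chow HuRHep-/- liver, at 29.9 CPM. In HFCF the highest WT liver, at 25.9 CPM, lay above the lowest HuRHep-/- liver, at 25.5 CPM. The log2 fold change was 0.36 (SE 0.12, adjusted p = 0.131) in chow and 0.34 (SE 0.18, adjusted p = 0.245) in HFCF (limma). Without 1 liver the HFCF value ran from 0.14, without the first WT liver, to 0.50, without the second.

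**Figure D2:**
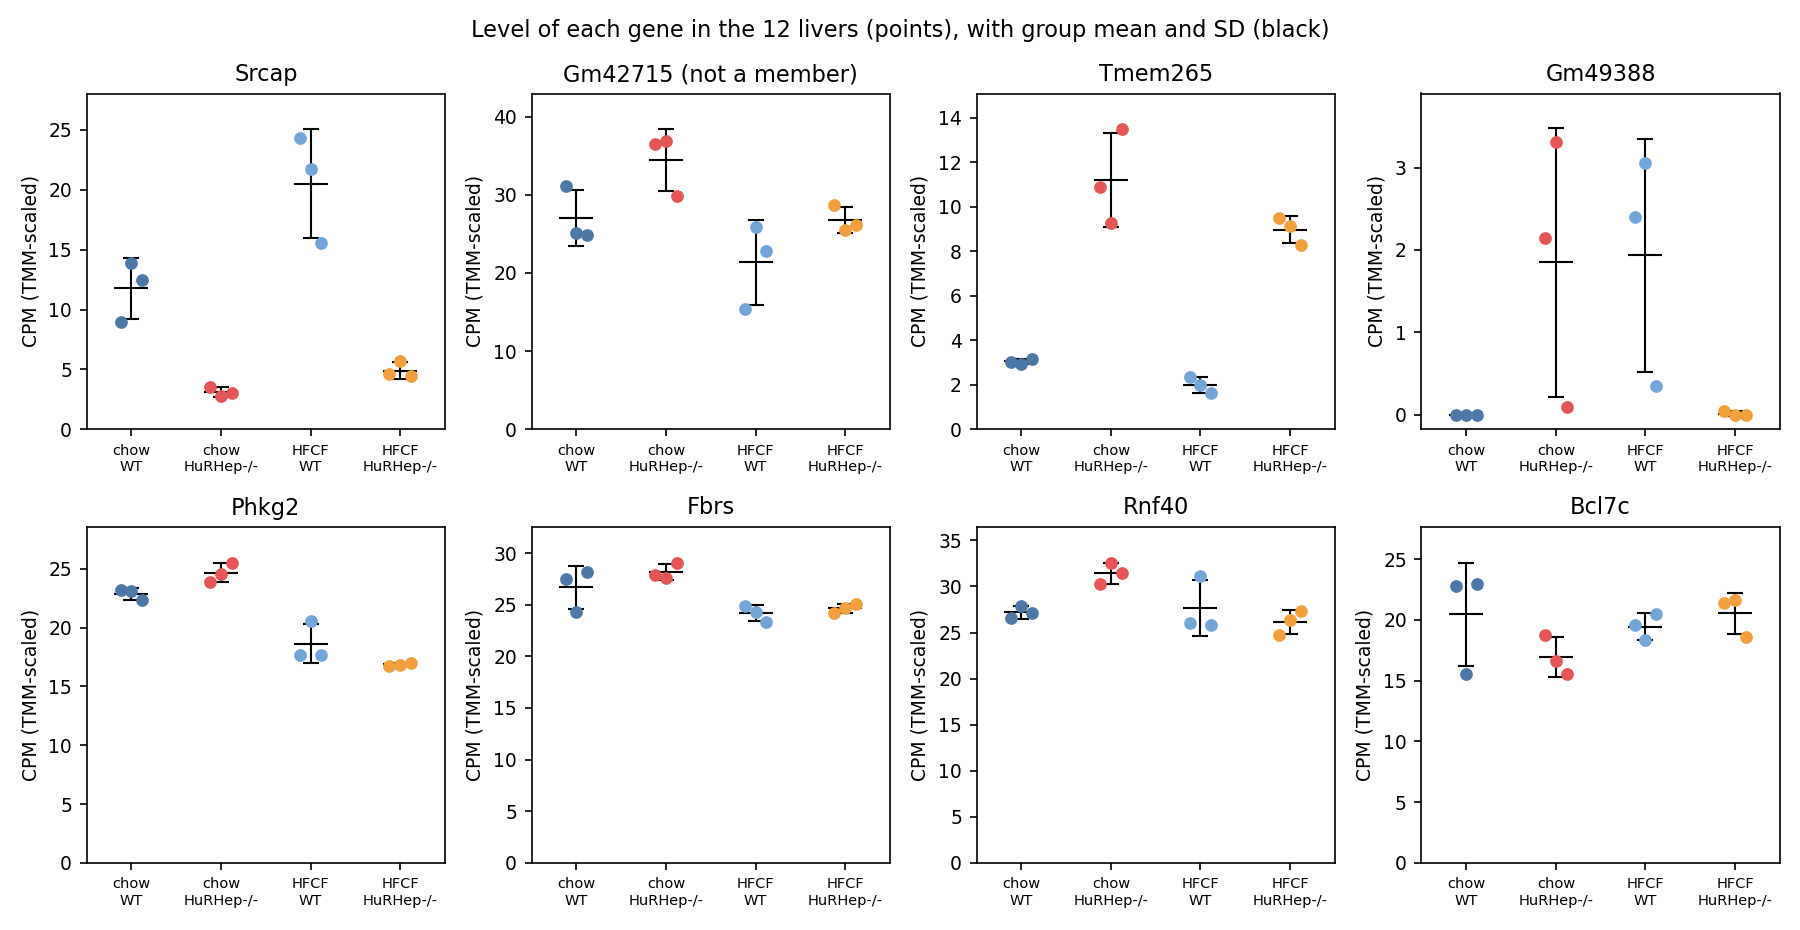
TMM-scaled CPM of the 7 members and of Gm42715 in each of the 12 livers (points, 3 per group), with the group mean and SD in black and every axis including 0. Srcap and Tmem265 separate the genotypes in opposite directions on both diets, whereas Phkg2, Fbrs, Rnf40 and Bcl7c stay between 15.5 and 32.5 CPM.

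The 3 overlapping rows together varied far less than Srcap or Tmem265 alone. Srcap, Gm42715 and Tmem265 summed to 43.1, 42.0 and 40.5 CPM in chow WT and to 51.0, 48.8 and 46.4 CPM in chow HuRHep-/-. In HFCF the sum was 42.0, 49.5 and 40.0 CPM in WT and 42.7, 40.4 and 38.8 CPM in HuRHep-/-. The genotypes did not overlap in chow, where the sum was higher in HuRHep-/-, and they overlapped in HFCF. Fitted as 1 row, the sum had a log2 fold change of 0.23 (SE 0.07) in chow and -0.12 (SE 0.09) in HFCF, given without a test since it contains the genes the rule chose. Srcap and Gm42715 without Tmem265 summed to 40.1, 39.0 and 37.3 CPM in chow WT and 40.1, 39.6 and 32.9 CPM in chow HuRHep-/-, which overlapped. In HFCF that sum was 39.7, 47.6 and 38.3 CPM in WT and 33.2, 31.2 and 30.5 CPM in HuRHep-/-, which did not.

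The shares of Srcap and of Tmem265 in this sum did not overlap between the genotypes on either diet. Srcap took 28.2% ± 6.56 of the reads of the 3 rows in chow WT, 6.38% ± 0.685 in chow HuRHep-/-, 46.9% ± 9.88 in HFCF WT and 12.1% ± 1.77 in HFCF HuRHep-/- (SD, n = 3 per group). Tmem265 took 7.29% ± 0.471, 23.1% ± 5.28, 4.55% ± 0.902 and 22.1% ± 0.660 in the same order. Gm42715 took 64.5% ± 6.73, 70.5% ± 5.58, 48.6% ± 10.8 and 65.8% ± 2.24. Within HFCF WT the share of Srcap was 57.9%, 43.8% and 38.9% and that of Gm42715 was 36.5%, 52.2% and 57.1%. Whether these shares follow transcripts in the liver or the division of shared reads between rows was not tested.

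**Figure D3:**
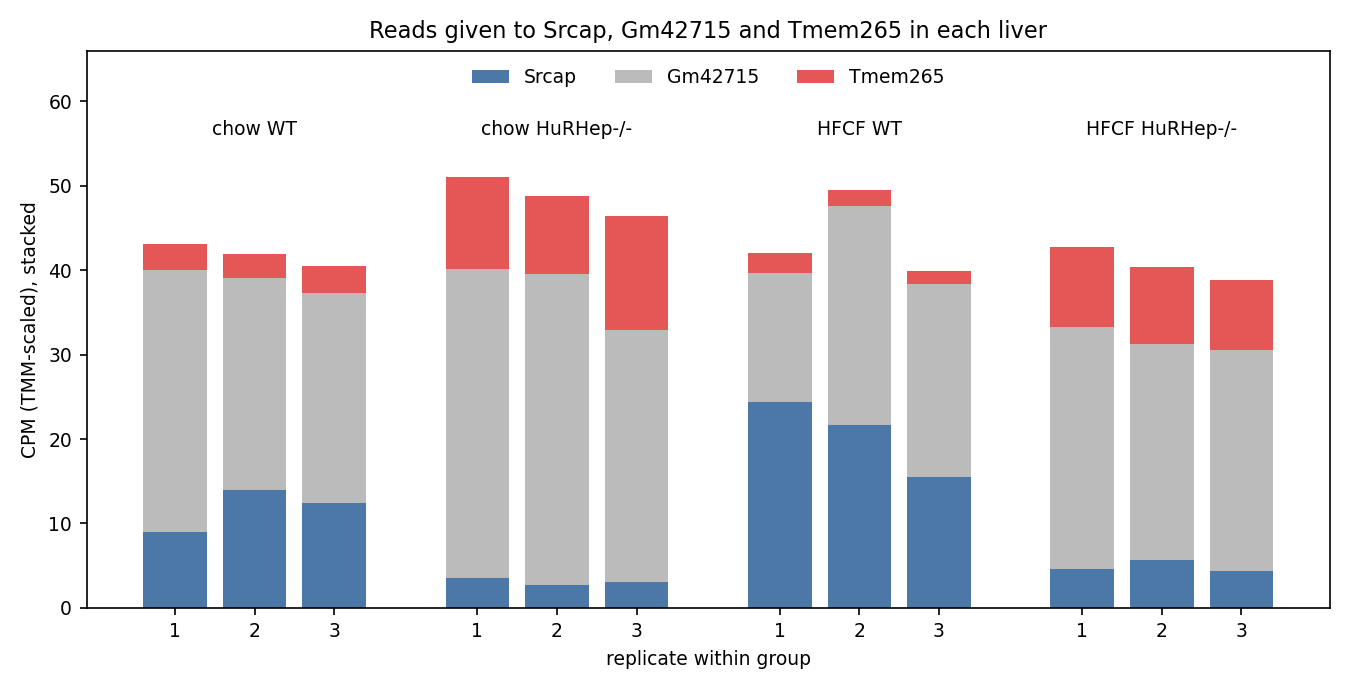
TMM-scaled CPM given to Srcap (blue), Gm42715 (grey) and Tmem265 (red) in each liver, stacked, with bars starting at 0 and the 3 replicates of each group side by side. The stacks reach 38.8 to 51.0 CPM in all 12 livers while the Srcap part runs from 2.76 to 24.3 CPM and the Tmem265 part from 1.62 to 13.5 CPM.

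Gm49388, further along the chromosome at chr7:127785608-127803802, gave a pattern that turned with diet. This row is named RP23-325D10.3 in the tables and was matched by its Ensembl identifier. Its raw counts were 0, 0 and 0 in chow WT and 74, 107 and 3 in chow HuRHep-/-. In HFCF they were 91, 100 and 11 in WT and 2, 0 and 0 in HuRHep-/-. So the label with reads in chow was the label almost without them in HFCF, and in both groups that had reads the third liver held far fewer than the other two. Over the group, chow HuRHep-/- was at least 56.1-fold higher than chow WT at a floor of 3 counts for the WT group. HFCF WT was 115-fold higher than HFCF HuRHep-/- (exact 95% interval 31.3 to 952), an interval that covers counting error only.

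All 5240 exonic bases of Gm49388 are shared with Setd1a or Hsd3b7, so no base belongs to it alone. The 2 joins below are the sequences in GENCODE M21 that the read-through transcripts hold and Setd1a and Hsd3b7 transcripts lack as a whole, with the Setd1a side (chr7:127799461-127799480) in capitals. The lower-case side is chr7:127801127-127801146 in Gm49388-202 and chr7:127801075-127801094 in Gm49388-201, plus strand throughout.
Gm49388-202 join: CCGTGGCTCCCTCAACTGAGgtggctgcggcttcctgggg
Gm49388-201 join: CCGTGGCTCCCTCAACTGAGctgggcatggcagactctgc
Gm49388 reads were 0.337% of the reads of Setd1a, Gm49388 and Hsd3b7 in chow HuRHep-/- and 0.403% in HFCF WT. Hsd3b7 itself had 36479 reads over the 3 chow WT livers and 52663 over the 3 chow HuRHep-/- livers, and rose by a log2 fold change of 0.41 (SE 0.08, adjusted p = 0.0427) in chow. That call was made in 8 of its 15 alternative fits (adjusted p up to 0.153). The 8 include the fit of its row summed with Setd1a and Gm49388 (adjusted p = 0.0462). In HFCF the Hsd3b7 difference was -0.01 (SE 0.13, adjusted p = 0.956). Setd1a differed by -0.13 (SE 0.09, adjusted p = 0.445) in chow and -0.16 (SE 0.10, adjusted p = 0.315) in HFCF, all by limma with Benjamini-Hochberg adjustment.

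The remaining members share at most 1.87% of their exonic bases with another gene of the same strand, and their genotype differences were small. Phkg2 (chr7:127573340-127583307) had raw counts of 704, 692 and 683 in chow WT, 825, 795 and 829 in chow HuRHep-/-, 671, 674 and 556 in HFCF WT and 673, 649 and 632 in HFCF HuRHep-/-. After scaling by library it stood at 22.9 ± 0.480, 24.7 ± 0.800, 18.6 ± 1.67 and 16.9 ± 0.128 CPM. On that scale the livers labelled HuRHep-/- were all above WT in chow and all below WT in HFCF, with log2 fold changes of 0.12 (SE 0.07) and -0.16 (SE 0.08), the second being -0.09 without the second HFCF WT liver. The raw HFCF counts overlapped, and the share of all genes that separate in this way was not counted. Rnf40 (chr7:127588767-127604799) had 806, 835 and 831 reads in chow WT and 1043, 1050 and 1024 in chow HuRHep-/-, then 985, 1021 and 812 in HFCF WT and 993, 1016 and 1015 in HFCF HuRHep-/-. Its levels were 27.2 ± 0.698, 31.4 ± 1.14, 27.7 ± 3.05 and 26.1 ± 1.30 CPM, apart in chow and overlapping in HFCF, and its log2 fold changes were 0.21 (SE 0.07) and -0.09 (SE 0.09), the second running from -0.13 to -0.0052 without 1 liver, the latter without the second WT liver.

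Fbrs (chr7:127479199-127491711), upstream of Srcap, had 836, 728 and 863 reads in chow WT, 962, 892 and 944 in chow HuRHep-/-, 943, 797 and 735 in HFCF WT and 970, 952 and 931 in HFCF HuRHep-/-. At 26.7 ± 2.06, 28.2 ± 0.762, 24.2 ± 0.778 and 24.6 ± 0.444 CPM the genotypes overlapped on both diets, with log2 fold changes of 0.09 (SE 0.08) and 0.01 (SE 0.06). Without 1 liver the Fbrs values ran from 0.03, without the second WT liver, to 0.13 in chow, and from -0.0082, without the third WT liver, to 0.05 in HFCF. Bcl7c (chr7:127661456-127708933, minus strand) had 693, 465 and 703 reads in chow WT, 647, 537 and 504 in chow HuRHep-/-, 741, 600 and 645 in HFCF WT and 859, 834 and 690 in HFCF HuRHep-/-. It too overlapped on both diets, with log2 fold changes of -0.24 (SE 0.16) and 0.06 (SE 0.09). The chow value was -0.43 without the second WT liver, -0.16 without the first and -0.15 without the third, and the HFCF value ran from 0.02 to 0.13 without 1 liver. Both genes had their widest spread in chow WT, where the second liver was the lowest.

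Per kb of the longest transcript, the order of the members changed with the label through Tmem265 and Srcap. All exonic bases of Tmem265 and Gm49388 and 61.7% of those of Srcap are shared with other rows. Reads of shared bases may have gone to those rows, so these levels cannot be set on a par with those of the other members. In chow WT the levels were 11.9 ± 0.250 CPM per kb for Phkg2, 6.41 ± 0.495 for Fbrs, 5.15 ± 0.132 for Rnf40, 3.28 ± 0.680 for Bcl7c, 2.89 ± 0.109 for Tmem265 and 1.11 ± 0.239 for Srcap, with Gm49388 at 0. Bcl7c and Tmem265, next to each other in that order, did not differ beyond their spread. In chow HuRHep-/- Tmem265 stood second at 10.6 ± 2.02 CPM per kb, below Phkg2 at 12.9 ± 0.417, and Srcap stood last at 0.292 ± 0.0388, beside Gm49388 at 0.357 ± 0.314. In HFCF WT Srcap (1.93 ± 0.424 CPM per kb) and Tmem265 (1.88 ± 0.346) were alike within their spread, while in HFCF HuRHep-/- Tmem265 (8.52 ± 0.588) was within its spread of Phkg2 (8.80 ± 0.0666) and Srcap was at 0.459 ± 0.0642.

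In chow 6 of the 7 members passed the filter on low counts, and in HFCF all 7 did, Gm49388 only through the WT livers. Over all genes, 4.18% of the 13526 tested in chow and 6.79% of the 14295 tested in HFCF had an adjusted p of at most 0.05, and no count of members past that threshold is given because these contrasts were treated as used in choosing them. The genotype difference in HFCF minus that in chow was -0.15 (SE 0.28) for Srcap and 0.33 (SE 0.22) for Tmem265 on the log2 scale. Without 1 liver it ran from -0.34 to 0.03 for Srcap, above 0 only without the first chow WT liver, and from 0.19 to 0.47 for Tmem265. It was -0.25 (SE 0.10) for Phkg2, -0.28 (SE 0.11) for Rnf40, -0.05 (SE 0.09) for Fbrs and 0.33 (SE 0.20) for Bcl7c, given without a test for the same reason. Without 1 liver it ran from -0.10 to 0.01 for Fbrs, above 0 only without the second chow WT liver, and from 0.23 to 0.51 for Bcl7c.

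The difference between diets, averaged over both genotypes, did not choose the members and was tested. Srcap was higher in HFCF by a log2 fold change of 0.72 (SE 0.14, adjusted p = 0.00138), a 1.65-fold difference, and Tmem265 was lower by -0.47 (SE 0.11, adjusted p = 0.00493). As between genotypes, the adjacent rows thus moved in opposite directions, here with Srcap up and Tmem265 down. Within WT the Srcap difference was 0.80 (SE 0.20) and within HuRHep-/- it was 0.65 (SE 0.20), with every HFCF liver above every chow liver of the same label. For Tmem265 the values were -0.63 (SE 0.16) within WT and -0.31 (SE 0.16) within HuRHep-/-, where the 2 diets overlapped. No test within 1 label is given for a member, since that difference is not independent of the genotype contrasts. Each diet has its own table, and HFCF livers were collected after the 16 weeks of feeding, so diet, age and any batch of the tables cannot be told apart.

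Phkg2 and Fbrs were also lower in HFCF, by -0.42 (SE 0.05, adjusted p = 7.83e-05) and -0.17 (SE 0.05, adjusted p = 0.0124). The Fbrs call was lost with upper-quartile factors (-0.10, adjusted p = 0.0738). Within WT livers the Fbrs difference was -0.14 (SE 0.07), given without a test. Rnf40 differed by -0.12 (SE 0.06, adjusted p = 0.084), which passed the threshold at -0.17 (adjusted p = 0.00933) without the second HFCF WT liver. Within HuRHep-/- livers the Rnf40 difference was -0.27 (SE 0.08), and within WT livers it was 0.02 (SE 0.08), given without a test. Bcl7c differed by 0.11 (SE 0.10, adjusted p = 0.358), by 0.02 without the second chow WT liver, and by -0.05 within WT and 0.28 within HuRHep-/- livers. Of the 6 members other than Gm49388, 4 were called, 1 higher and 3 lower, beside the 49.4% of 14535 genes called for diet. Gm49388 was higher with HFCF in WT and lower in HuRHep-/-, and its average over both is no summary of either. Gm42715 was lower by -0.36 (SE 0.12, adjusted p = 0.0243), but the call was lost without the first chow WT liver (adjusted p = 0.0611), the second chow HuRHep-/- liver (0.0544) or the second HFCF HuRHep-/- liver (0.0509). It was also lost with upper-quartile factors (adjusted p = 0.0515), within WT livers (0.131) and within HuRHep-/- livers (0.110). The sum of Srcap, Gm42715 and Tmem265 differed by -0.10 (SE 0.06, adjusted p = 0.16), with a 95% interval of -0.22 to 0.02.

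**Figure D4:**
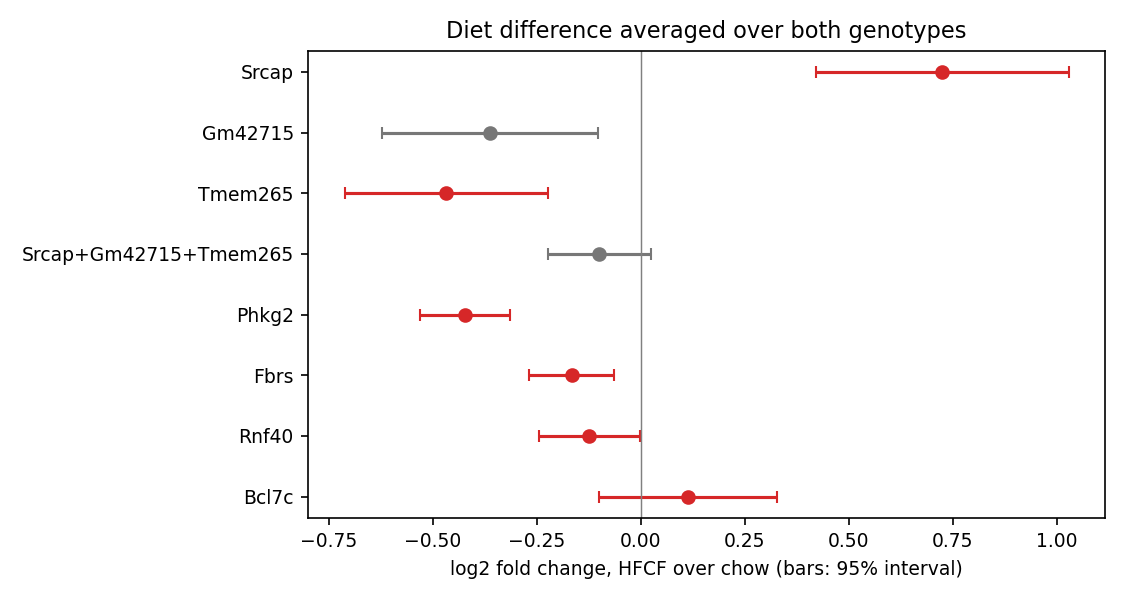
Log2 fold change of HFCF over chow, averaged over both genotypes, with 95% intervals, for 6 members (red), for Gm42715 and for the 3 overlapping rows summed (grey). Srcap lies at 0.72 and Tmem265 at -0.47, while their sum with Gm42715 lies at -0.10 with an interval that includes 0.

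Within groups, livers with more reads in 1 member were not shown to have more or fewer in another. Deviations from the group means were correlated over 12 livers for 11 pairs, Srcap or Tmem265 with each other member. For Srcap with Tmem265 Pearson's r was 0.49 (exact permutation p = 0.179, adjusted p = 0.985) and Spearman's rho was 0.46 (exact permutation p = 0.215, adjusted p = 0.985). Without the 2 livers farthest from the median of Srcap r was 0.29. Tmem265 with Fbrs had the smallest p, at r = 0.49 (exact permutation p = 0.0278, adjusted p = 0.306) and rho = 0.59 (exact permutation p = 0.0548, adjusted p = 0.603), with r = 0.24 without the 2 livers farthest from the median of Tmem265. The other 9 pairs had an adjusted p of 0.985 for both measures (two-sided exact permutation within groups, 1296 arrangements). Without the 2 livers farthest from the median of Tmem265, r moved from -0.12 to -0.89 for Rnf40 and from 0.14 to -0.77 for Phkg2, so these values rest on a few livers. For the other 7 pairs r lay between -0.40 and 0.57 without 2 livers.

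The genes whose levels followed those of the pair most closely across the 12 livers lie elsewhere in the genome. Among 10208 genes with a mean of at least 100 counts, Srcap was most alike to Alg9 (Pearson's r = 0.97 on log2 CPM), a mannosyltransferase gene, to the mitochondrial dehydrogenase gene Hsd17b10 (0.96) and to Vkorc1l1 (0.96). Alg9 followed the order of the groups but over a much smaller range, from 13.7 ± 0.191 CPM in chow HuRHep-/- to 16.5 ± 0.544 CPM in HFCF WT. Tmem265 was most alike to Limd2 (0.95), to Igf2r (0.95), the cation-independent mannose 6-phosphate receptor gene, and to Atl3 (0.94), an atlastin gene of the endoplasmic reticulum. Limd2 stood at 18.6 ± 1.24, 36.4 ± 4.04, 14.2 ± 2.50 and 32.8 ± 2.07 CPM in chow WT, chow HuRHep-/-, HFCF WT and HFCF HuRHep-/-. Gm42715 had r = -0.76 with Srcap and 0.60 with Tmem265. All of these coefficients rest on the same 12 livers in 4 groups, and are a description.

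The other genes around the members were tested between genotypes. The window held 66 non-member genes of both tables, with starts from 497.4 kb before to 786.2 kb after the start of Srcap. In chow 51 were tested, 2 were higher and 4 lower in HuRHep-/-, or 11.8% against 4.18% of all genes. In HFCF 52 were tested, 0 were higher and 3 lower, or 5.77% against 6.79%. Median log2 fold changes were -0.12 and 0.01, beside 0.0049 and -0.0017 over all genes tested. The serine protease gene Prss36 was called on both diets, by -1.20 (SE 0.14, adjusted p = 0.0105) in chow and -0.94 (SE 0.16, adjusted p = 0.0285) in HFCF. Its raw counts were 181, 221 and 192 in chow WT and 86, 94 and 99 in chow HuRHep-/-.

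Prss53, another serine protease gene of that stretch, fell by 1.32 on the log2 scale in chow (SE 0.19, adjusted p = 0.0157). E430018J23Rik was lower on both diets, by -0.66 (adjusted p = 0.0283) and -0.64 (adjusted p = 0.0462). Besides Hsd3b7, the syntaxin gene Stx4a was higher in chow, by 0.43 (SE 0.08, adjusted p = 0.0331), and Maz, a zinc finger factor, was lower by -0.29 (SE 0.06, adjusted p = 0.0432). None of these genes was called in all of its 15 alternative fits. In chow Prss36 was called in 14, Prss53 in 12, E430018J23Rik in 10, Stx4a in 9, and Hsd3b7 and Maz in 8 each, and in HFCF Prss36 was called in 11 and E430018J23Rik in 7. For Hsd3b7 the 8 include the fit of its row summed with Setd1a and Gm49388. The window's call count of 6 in chow fell to 0 without the second HuRHep-/- liver, 1 without the first HuRHep-/- or first WT liver, and 2 without the third WT liver. The count of 3 in HFCF became 0 or 1 without any 1 liver other than the third WT liver, without which it was 6. For diet, 55 were tested, 16 were higher and 11 lower, or 49.1% against 49.4%.

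**Figure D5:**
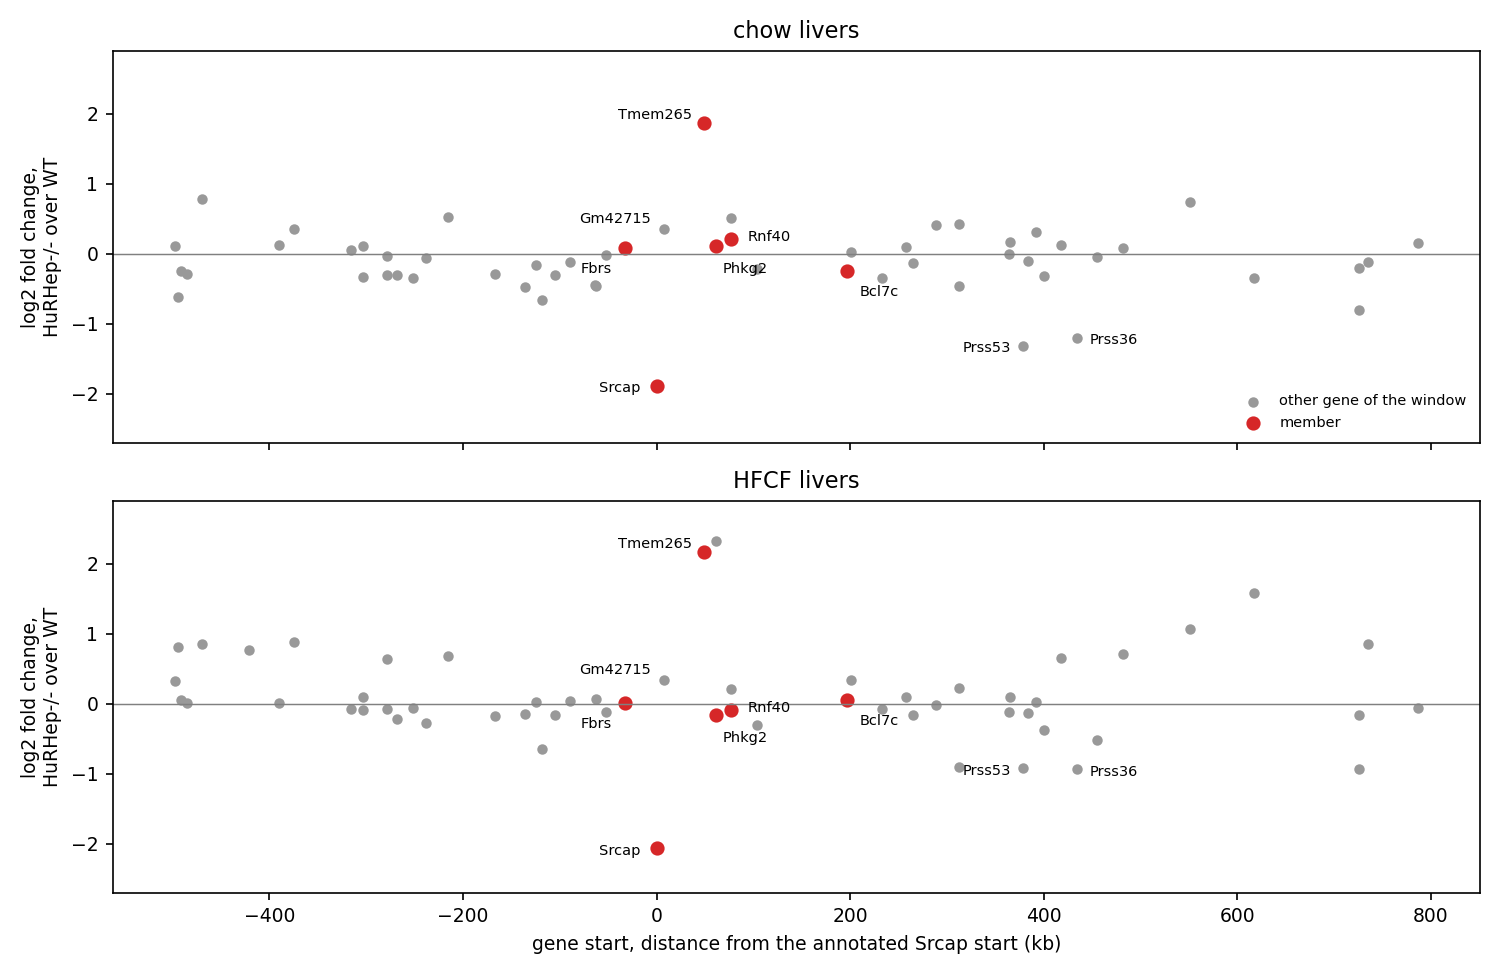
Log2 fold change of HuRHep-/- over WT in chow (top) and HFCF (bottom) for the genes tested around the members, against the distance of the gene's start from the annotated start of Srcap in kb; Gm49388, with groups at or near 0, is left out. Srcap (-1.89 and -2.07) and Tmem265 (1.86 and 2.17) lie on opposite sides of 0 with starts 49.4 kb apart, with Phkg2, Fbrs, Rnf40 and Bcl7c near 0 around them.

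The partners of the members' proteins were given by lists of genes encoded elsewhere. Of 10 genes of the SRCAP complex and H2A.Z (such as Actr6, Vps72 and H2afz), 0 were called between genotypes in chow and 0 in HFCF by limma, where 1 and 0 had an unadjusted p of at most 0.05 and voom weights called 0 and 0. For diet 3 were lower and 0 higher: Yeats4 at -0.33 (adjusted p = 0.00155), H2afv at -0.23 (adjusted p = 0.0072) and Znhit1 at -0.12 (adjusted p = 0.0258). Of 12 tested genes around phosphorylase kinase and glycogen, Calm2, a calmodulin gene, was the 1 call in each genotype contrast, at 0.33 in chow (adjusted p = 0.0329) and 0.32 in HFCF (adjusted p = 0.0273), where voom weights called 1 and 2 genes. For diet 4 were higher and 2 lower, among them the branching enzyme Gbe1 at 0.56 (adjusted p = 9.53e-05) and the liver glycogen synthase Gys2 at -0.67 (adjusted p = 0.0017).

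Of 9 genes of H2B ubiquitination, 0 were called between genotypes on either diet by limma and by voom weights (2 and 3 at an unadjusted p of at most 0.05). For diet 5 were lower and 0 higher, including Wac at -0.49 (adjusted p = 6.58e-05), Rtf1 at -0.48 (adjusted p = 4.96e-05) and Rnf20, the partner of Rnf40, at -0.19 (adjusted p = 0.0108). Of 15 BAF complex genes, Arid1a was higher in chow at 0.32 (adjusted p = 0.0347) and Smarca4, the BAF ATPase, was higher in HFCF at 0.34 (adjusted p = 0.0291), where voom weights called 1 and 2 genes of the list. For diet 4 were higher and 2 lower, led by Smarca4 at 0.80 (adjusted p = 1.01e-06). Of the AUTS2-type Polycomb genes, 0 of 7 in chow and 0 of 8 in HFCF were called between genotypes by limma and by voom weights (0 and 3 at an unadjusted p of at most 0.05), and for diet 1 was higher and 5 lower. Median log2 fold changes between genotypes ran from -0.02 to 0.06 in chow and from -0.11 to 0.06 in HFCF over the 5 lists, beside 0.0049 and -0.0017 over all genes tested, and the counts stand beside 4.18%, 6.79% and 49.4% of all genes called for genotype in chow, genotype in HFCF and diet.

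The annotation around the starts and ends of the members was also read. HuR binds AU-rich and U-rich stretches, often in 3′ UTRs. The letters ATTTA occurred 0 times in the annotated 3′ UTRs of Srcap (450 bases), Tmem265 (325 bases), Phkg2 (276 bases), Rnf40 (2156 bases) and Bcl7c (53 bases) and 2 times in that of Fbrs (1223 bases), while 65.3% of 13106 tested genes with an annotated 3′ UTR held it at least 1 time. The median 3′ UTR of those genes had 947 bases, more than all of these members but Rnf40 and Fbrs, and a shorter UTR has fewer places for a match. The RefSeq promoter windows on GRCm38.p6, of 250 bases before to 50 bases after a start, held 16 CG pairs for Srcap and from 11 to 40 for Phkg2, Fbrs, Rnf40 and Bcl7c, against a median of 7 over 32851 promoters. TATAAA, on either strand, was in none of these windows and in 13.6% of all. No match says only that these letters are not in the window.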

How the data were processed

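Liver RNA (integrity number above 6.0) was made into stranded libraries with the NEBNext kit. The authors aligned reads and counted genes in CLC Genomics Workbench, and per the labels the build was GRCm38.p6 (mm10). The deposited tables, 1 per diet, hold raw counts per gene written as text with commas between digit groups, recorded here as another unit rather than as plain counts. They were parsed to whole numbers, and the planned count test was replaced by limma 3.58.1 (R 4.3.3) on log2 CPM with a pseudocount of 0.5 and TMM factors. Genes needed 10 counts in 3 libraries and 15 in total. Genotype was fitted within each table, and diet and its interaction with genotype over all 12 libraries. Calls had a Benjamini-Hochberg adjusted p of at most 0.05. The fitting code was tested on simulated data.

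The members and lists were chosen with earlier results of these data known. Named were the members, the window genes called between genotypes except 1, the list genes called between genotypes, and the 3 genes most alike to Srcap and to Tmem265. Of the list genes called for diet only some were named. Window genes called for diet were counted but, apart from Gm42715, not named for that call. Gm42715, Setd1a and Hsd3b7, which overlap members, were added, and the summed rows are an alternative chosen after seeing the data. Positions and transcript sequences came from GENCODE M21, promoters from RefSeq. Same-numbered livers were checked for pairing (r from -0.14 to 0.19 over 12 pairs, above 0.1 in 3), which does not pair them. Nothing in the labels says the livers of a group were processed apart, so p-values measure the spread between these samples. The library totals given in the report set the counting precision. Alternatives were RLE and upper-quartile factors, no filter, 10 counts in every library, a pseudocount of 2, voom weights and a replicate block. Others were a fold of at least 1.5 joined with 10 counts in each group, 1 fit on all 12 libraries, and leaving out each liver. Python 3.11.15 with scipy 1.17.1 was used for the rest. The values of 1 other gene of the window, counted among those called in HFCF, are not reported here.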

Additional observations from a re-analysis of the deposited data

Results flagged for a closer look

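Gm49388 is listed here because the livers labelled HuRHep-/- were all above WT in chow and all below WT in HFCF. The largest group total was 202 reads, in HFCF WT, beside 184 in chow HuRHep-/-, 0 in chow WT and 2 in HFCF HuRHep-/-. The difference between the 2 genotype effects was fitted but no test of it is given, since the genotype contrasts of all members were treated as used in choosing them and the row passed the filter on low counts only through the groups where it is high. No exonic base of it is its own, and the third liver of each group with reads held 3 and 11 of them.

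Phkg2 turned in the same way on the TMM-scaled CPM scale alone, at a much smaller size, since its raw counts in HFCF overlapped between genotypes. For neither gene was the share of all genes that separate in this way counted. Its largest group total was 2449 reads, in chow HuRHep-/-, beside 2079 in chow WT, 1901 in HFCF WT and 1954 in HFCF HuRHep-/-. The log2 fold changes were 0.12 (SE 0.07) in chow and -0.16 (SE 0.08) in HFCF (-0.09 without the second HFCF WT liver), and their difference was -0.25 (SE 0.10), given without a test because the genotype contrasts were treated as used.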

How the results depend on the processing

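Srcap (lower) and Tmem265 (higher) kept their direction between genotypes on both diets in every alternative fit that kept the 3 overlapping rows apart. Leaving out 1 liver gave -2.08 to -1.76 in chow and -2.25 to -1.92 in HFCF for Srcap, and 1.72 to 1.99 and 2.04 to 2.31 for Tmem265. Over its 21 alternatives the diet difference of Srcap ran from 0.63 to 0.82 and that of Tmem265 from -0.63 to -0.31. The smallest Tmem265 difference, -0.31, was within HuRHep-/- livers, where the diets overlapped. Both genes were called in all 12 fits without 1 liver. Fbrs lost its diet call with upper-quartile factors (-0.10), and its difference was -0.14 within WT. The diet difference of Gm49388 was 6.40 within WT and reversed to -5.37 within HuRHep-/- on a scale set by the pseudocount.

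The counts of genes called depended more on the settings. For genotype in chow 566 genes became 947 in the fit on all 12 libraries, 341 with the replicate block, and 9 to 535 without 1 liver. With the joint rule of a fold of at least 1.5 and 10 counts in each group they became 301. In HFCF 971 became 1621 in the fit on all 12 libraries, 517 with that joint rule, and 28 to 1280 without 1 liver, and the replicate block gave 1342. For diet 7185 became 3511 within WT, 2518 with that joint rule, 7286 with the replicate block and 6336 to 7442 without 1 liver. For the interaction 0 became 1 without the filter, 1 with voom weights, and 0 to 41 without 1 liver (the 41 without the third HFCF WT liver). Fewer libraries in a fit leave fewer degrees of freedom, and the cause was not tested otherwise. Upper-quartile factors moved the split of calls from 407 higher and 564 lower to 421 and 370 in HFCF, and from 3615 and 3570 to 4320 and 2717 for diet. The replicate block changed no diet call of a member. No pair of members was called in the within-group correlations under any alternative. The log2 ratio of group means for the 3 rows summed was 0.19 to 0.25 in chow and -0.17 to -0.01 in HFCF without 1 liver. For Srcap and Tmem265 alone it was -0.18 to 0.06 in chow and -0.86 to -0.56 in HFCF.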

Other observations

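Genes that share exons with a neighbour on the same strand were looked at across the whole tables, after the values of the members were seen. Leaving out the members, 145 genes tested in chow shared at least 50% of their exonic bases with another gene of the tables, and 28 of them (19.3%) differed between genotypes by at least 1 on the log2 scale. Among the 13362 other genes tested 377 (2.82%) did so. Their median standard errors were 0.210 and 0.125, so the overlapping genes also spread more between livers. In chow 16 of the 145 were called, against 547 (4.09%) of the others. In HFCF 19 of 151 (12.6%) differed by that much against 6.60% of the others, and 6.62% against 6.78% were called. For diet 18 of 158 (11.4%) differed by that much against 9.46% of the others, and 31.6% against 49.7% were called. The median standard errors were again larger for the overlapping genes, at 0.240 against 0.130 in HFCF and 0.182 against 0.0984 for diet.

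Within groups, the deviations of Srcap and Gm42715 were not shown to be related, with r = -0.51 (exact permutation p = 0.274) and rho = -0.60 (exact permutation p = 0.141) over 12 livers, and r = -0.28 without the 2 livers farthest from the median of Srcap. For Tmem265 with Gm42715 r was -0.59 (exact permutation p = 0.206) and rho -0.55 (exact permutation p = 0.155), with r = -0.49 without 2 livers. Neither pair passed a threshold of 0.05 before or after adjustment over the 2 pairs (0.274 for r and 0.155 for rho in both), and the pairs were chosen after the counts were seen.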
